A study of Mus musculus with 20 samples.

Results

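The AP-1 family is a group of transcription factors whose members pair with each other and bind DNA as dimers. Its 9 genes described here are Fos, Fosb, Fosl1, Fosl2, Jun, Junb, Jund, Atf3 and Maff, found by gene symbol among the 29986 genes of the count table, and all 9 were among the 14420 genes tested. The cells were tenocytes, the fibroblast-like cells of tendon, taken from tail tendon of C57Bl/6 mice that were adult and of wild type. One group received no IGF1 (0 h), and the others were given recombinant insulin-like growth factor 1 (IGF1) at 100 ng/mL for 1, 2, 6 or 24 h, with 4 RNA-seq libraries per time and 20 in all. Whether the 4 libraries of each time stand for separate animals or dishes is not in the labels, so the p-values measure only the spread between these libraries, which may be technical. No untreated cells of the later times were analysed here, and a change with IGF1 and a change with time in culture cannot be told apart.

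AP-1 proteins share a basic region that contacts DNA and a leucine zipper that joins the partners. FOS proteins bind DNA only in a pair with a JUN protein, whereas JUN proteins can also pair among themselves. Fos, Fosb, Jun and Junb are classic immediate early genes: growth factors switch them on through the ERK kinases and serum response factor, and their messenger RNAs are short-lived. Fosl1 and Fosl2 encode FOS proteins that lack the strong activation domain of Fos, and Fosl1 is itself a known target of AP-1. In connective tissue cells AP-1 is known for driving collagenases, other proteases and cytokines.

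All 10 tendon fibroblast markers, among them Scx, Tnmd and Col1a1, were detected in every group, with a summed level of 53067 to 83558 CPM per library (CPM are read counts scaled to a fixed library size). Against 0 h, 1 was called (defined below) higher and 1 lower at 1 h, 2 and 4 at 2 h, 2 and 3 at 6 h, and 1 and 3 at 24 h. The shares of all tested genes were 6.75% and 3.88%, 20.2% and 17.5%, 20.6% and 19.6%, and 12.7% and 13.2%. Total counts ran from 13734425 to 22687173 per library. The cultures also held macrophage transcripts. The summed level of 13 macrophage markers was 268 to 337 CPM in the 0 h libraries, 243 to 530 CPM at 1 h, 400.2 to 1048 CPM at 2 h, 283 to 449 CPM at 6 h and 196 to 353 CPM at 24 h, and none of the 13 was at 0 throughout a group. Of the 12 macrophage markers tested, 11 were called higher at 2 h than at 0 h, beside 20.2% of all tested genes. At 1, 6 or 24 h 0 of them were called. The highest sums belonged to 2 h replicate 2 (1048 CPM) and 2 h replicate 1 (573 CPM), and 2 h replicate 2 also held 79.4 CPM of 6 Schwann cell markers, against 5.33 to 19.2 CPM in the other 19 libraries. In bulk RNA, more cells of a type and more RNA per cell cannot be told apart. Member results at 2 h are therefore followed, where the value or call moved, by those without replicates 1 and 2. The remaining 2 h replicates 3 and 4 held 400.2 and 492 CPM of macrophage markers, still above every 0 h library. Called means a p under 0.05 in edgeR's quasi-likelihood test after Benjamini-Hochberg adjustment over all tested genes. Fold changes are log2 ± SE, and n is 4 libraries per time except in fits that left libraries out. In the fit without 2 h replicates 1 and 2, only replicates 3 and 4 stand for 2 h.

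In the mm10 build, per GENCODE release M21, Fos lies on chromosome 12 (85473890 to 85477273, plus strand), Fosb on chromosome 7 (19302696 to 19310051, minus), Fosl1 on chromosome 19 (5447547 to 5455946, plus) and Fosl2 on chromosome 5 (32135801 to 32157842, plus). Jun lies on chromosome 4 (95049034 to 95052222, minus), and Junb (84974484 to 84978718, minus) and Jund (70698949 to 70700616, plus) both lie on chromosome 8. Atf3 lies on chromosome 1 (191170296 to 191218039, minus) and Maff on chromosome 15 (79346621 to 79359076, plus). All 9 are protein-coding genes, and the deposited read counts are per gene. Fosl1 shares 1163 exonic bases (57.2% of its own) with Ccdc85b on the opposite strand, Jund shares 877 (52.6%) with the antisense gene Gm11175, Jun 232 (7.28%) with Junos and Junb 173 (7.52%) with Prdx2. Whether strand was used in counting is not given in the sources used here, so reads in these stretches cannot be assigned to one gene of the pair.

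The promoters of Jun, Junb and Maff are shown because these 3 genes rose at both 1 h and 2 h and had a match to a searched motif. Atf3 also rose at both times and had no match in this window, and Fosl1 was not matched to the table. The sequences are the 250 bases before the start in the RefSeq table of GRCm38.p6, which held 8 of the 9 members with 10 starts. Capitals mark a motif found by letter matching on both strands. The 10 promoters were searched for the cAMP response element TGACGTCA, the related octamer TGACATCA, the AP-1 element TGACTCA, the STAT-type element TTCNNNGAA, the TATAAA box, the FOXO-type GTAAACA and the CArG box.
Jun, chr4:95052223-95052472, minus strand: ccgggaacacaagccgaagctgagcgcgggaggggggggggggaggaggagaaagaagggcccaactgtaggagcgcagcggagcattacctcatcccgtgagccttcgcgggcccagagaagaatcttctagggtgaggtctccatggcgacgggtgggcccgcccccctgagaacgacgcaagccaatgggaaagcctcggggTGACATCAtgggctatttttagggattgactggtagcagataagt
Junb, chr8:84978749-84978998, minus strand: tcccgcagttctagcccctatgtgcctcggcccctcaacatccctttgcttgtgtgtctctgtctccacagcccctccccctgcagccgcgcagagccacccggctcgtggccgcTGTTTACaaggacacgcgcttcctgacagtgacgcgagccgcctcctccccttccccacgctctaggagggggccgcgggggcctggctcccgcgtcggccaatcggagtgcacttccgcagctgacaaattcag
Maff, middle one of 3 starts, chr15:79347270-79347519, plus strand: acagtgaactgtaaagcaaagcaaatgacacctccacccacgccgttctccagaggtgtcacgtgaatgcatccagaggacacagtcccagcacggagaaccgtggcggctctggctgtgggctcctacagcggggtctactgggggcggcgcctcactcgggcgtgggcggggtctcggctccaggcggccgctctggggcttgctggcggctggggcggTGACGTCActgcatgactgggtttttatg
Maff, last of 3 starts, chr15:79348152-79348401, plus strand: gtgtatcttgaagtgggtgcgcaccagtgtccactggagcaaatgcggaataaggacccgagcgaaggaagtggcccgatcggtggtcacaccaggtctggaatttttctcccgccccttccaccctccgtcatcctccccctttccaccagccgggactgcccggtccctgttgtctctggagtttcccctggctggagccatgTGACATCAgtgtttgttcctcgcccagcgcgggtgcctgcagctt
The capitals in the Jun promoter are TGACATCA, 45 to 38 bases before the start, and the same octamer stands at the same distance before the last Maff start. The capitals before the middle Maff start are TGACGTCA, 29 to 22 bases from it. The capitals in the Junb promoter are TGTTTAC, the reverse complement of GTAAACA, 135 to 129 bases before the start. The RefSeq starts used for Junb and Jund were not found in a GENCODE transcript. The Jund window ended at 70697738, before the GENCODE gene start at 70698949. TGACATCA was in 2 of the 10 member promoters and in 2.93% of all 32851 promoters of the table, TGACGTCA in 1 of 10 and 1.55%, GTAAACA in 1 of 10 and 3.17%, and TATAAA in 1 of 10 (Fos) and 12.4%. The AP-1 element was in 0 of 10 and 4.46%, the STAT-type element in 0 of 10 and 7.02%, and the CArG box in 0 of 10 and 1.47%. Sites outside the 250 bases were not searched, so a count of 0 says nothing about elements farther upstream or after the start. These matches describe the letters only and were not set against binding data.

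After 1 h of IGF1, 6 of the 9 members were called higher than at 0 h and 0 lower, where 6.75% of all tested genes were called higher and 3.88% lower. They were Fosl1, Junb, Atf3, Jun, Maff and Fosl2. After 2 h, again 6 were higher and 0 lower (20.2% and 17.5% of all genes), with Fos in place of Fosl2. After 6 h, 3 were higher and 4 lower (20.6% and 19.6%), and after 24 h 1 was higher and 2 lower (12.7% and 13.2%). The median log2 fold change of the 9 members against 0 h was 0.58 for 1 h, 0.71 for 2 h, 0.13 for 6 h and -0.22 for 24 h, while that of all tested genes lay between -0.01 and 0.00. The mean level was highest at 1 h in 4 members (Fosl2, Fosb, Junb and Maff), at 2 h in 3 (Fosl1, Jun and Atf3), at 6 h in Fos and at 0 h in Jund. Only in Fosl1, Fosl2 and Jun did the highest time differ past the threshold from the one after it in that order. Without 2 h replicate 2, Atf3 was at -0.10 at 2 h against 1 h in place of 0.28, and without 6 h replicate 3, Fos was at -0.12 at 6 h against 2 h, so that the time of the highest mean changed in both.

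**Figure D1:**
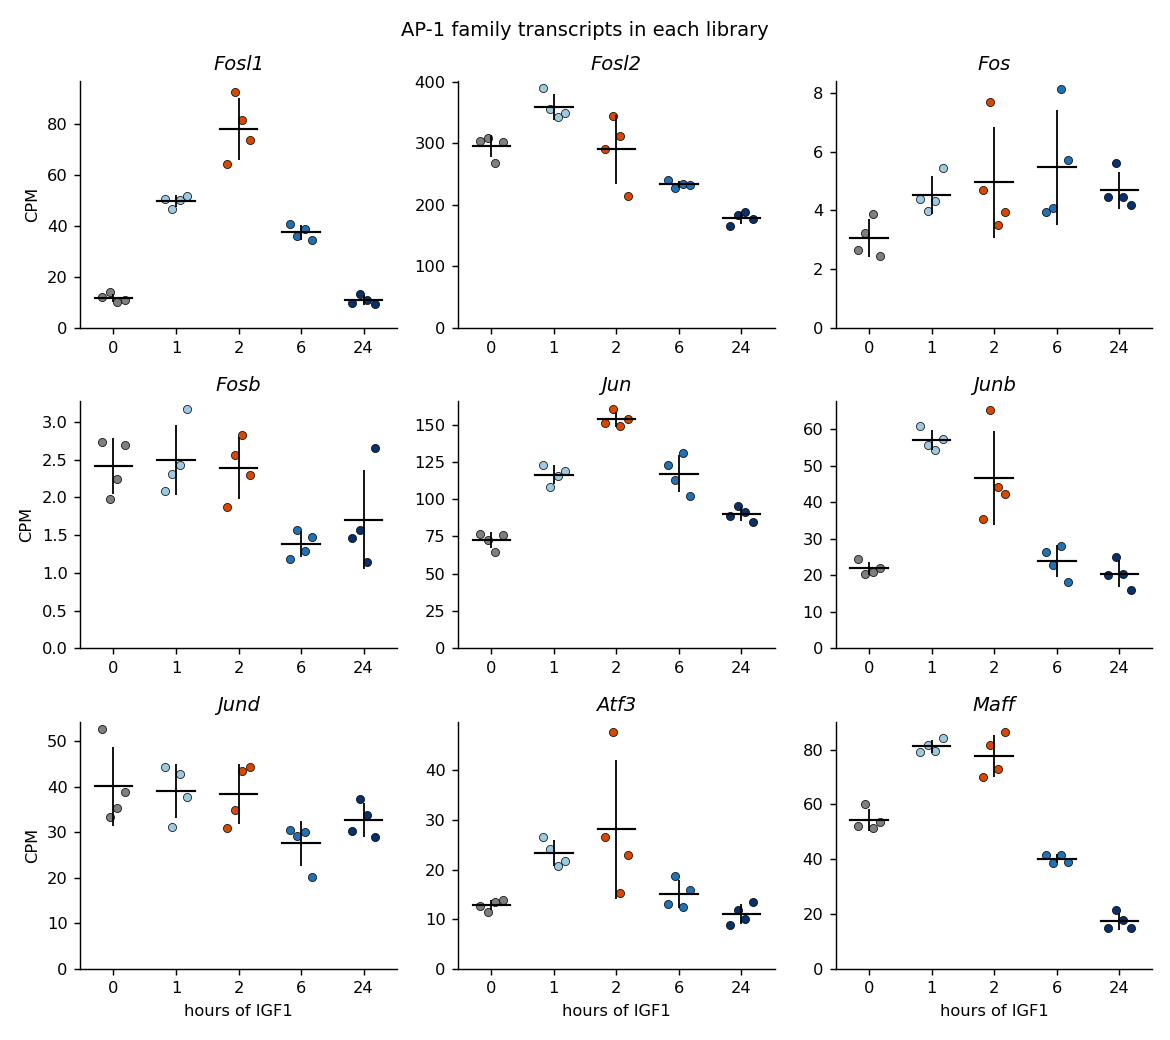
Level of each of the 9 AP-1 members in CPM (y axis, from 0) against hours of IGF1 (x axis, categories). Each point is 1 library, the horizontal line is the mean and the vertical line the SD of 4 libraries. Fosl1 and Jun peak at 2 h, Junb has its highest mean at 1 h, Maff and Fosl2 end below their 0 h level, and 2 h replicate 2 lies far above the other 2 h libraries in Atf3 (47.8 CPM).

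Fosl1 changed most among the FOS family. Its level was 12.0, 14.1, 10.1 and 11.03 CPM in the 4 libraries at 0 h, 50.9, 46.8, 50.3 and 51.9 CPM at 1 h, 64.2, 92.9, 81.9 and 73.9 CPM at 2 h, 40.7, 36.1, 38.9 and 34.4 CPM at 6 h, and 9.97, 13.5, 10.9 and 9.36 CPM at 24 h. Every library of 1, 2 and 6 h lay above every library of 0 h and of 24 h. Fosl1 was 4.23-fold higher at 1 h than at 0 h (log2 2.08 ± 0.11, edgeR adjusted p = 2.92e-13), 6.63-fold higher at 2 h (2.73 ± 0.11, adjusted p = 8.11e-16) and 3.18-fold higher at 6 h (1.67 ± 0.11, adjusted p = 7.77e-12). It rose further at 2 h against 1 h (0.65 ± 0.10, edgeR adjusted p = 6.91e-05) and fell at 6 h against 2 h (-1.06 ± 0.10, adjusted p = 1.88e-08) and at 24 h against 6 h (-1.77 ± 0.12, adjusted p = 5.03e-12). At 24 h the difference from 0 h was -0.10 (95% interval -0.35 to 0.14, edgeR adjusted p = 0.590). In the order of mean levels, 2 h, 1 h, 6 h, 0 h and 24 h, only the last neighbours, 0 h and 24 h, did not differ past the threshold.

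The overlapping gene Ccdc85b, a coiled-coil protein gene, also had its highest mean at 2 h, while its difference at 1 h did not pass the threshold. Its level was 15.9, 13.0, 11.2 and 13.8 CPM at 0 h, 17.5, 13.0, 13.2 and 12.7 CPM at 1 h, 15.4, 19.4, 21.5 and 22.3 CPM at 2 h, 14.4, 10.99, 11.6 and 7.61 CPM at 6 h, and 14.1, 15.1, 14.1 and 12.01 CPM at 24 h. The 1 h and 0 h libraries overlapped, and the difference at 1 h was 0.06 (95% interval -0.24 to 0.36, edgeR adjusted p = 0.879). At 2 h Ccdc85b rose by 0.54 ± 0.15 (edgeR adjusted p = 0.00649), and at 6 h it was at -0.28 ± 0.16 (adjusted p = 0.165). In comparisons with 2 h it moved in the direction of Fosl1: it rose at 2 h against 1 h (0.48 ± 0.15, edgeR adjusted p = 0.0317) and fell at 6 h against 2 h (-0.81 ± 0.15, adjusted p = 2.66e-04) and at 24 h against 2 h (-0.50 ± 0.15, adjusted p = 0.00939). At 24 h against 6 h, where Fosl1 fell, Ccdc85b was at 0.31 ± 0.16 (edgeR adjusted p = 0.133). Against 1 h it was at -0.34 ± 0.16 at 6 h (edgeR adjusted p = 0.102) and -0.03 ± 0.16 at 24 h (adjusted p = 0.918), where Fosl1 was lower at both times. Its rise at 2 h over 0 h was 0.69 (edgeR adjusted p = 0.00194) without 2 h replicates 1 and 2. How many reads each gene takes from the shared bases was not tested.

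Fosl2 followed a different course: a small early difference and a later fall. The libraries held 304, 308, 268 and 302 CPM at 0 h, 389.99, 355, 342 and 349 CPM at 1 h, 290.2, 344, 313 and 214 CPM at 2 h, 240.3, 227, 234 and 233 CPM at 6 h, and 166, 184, 189 and 177 CPM at 24 h. All 1 h libraries lay above all 0 h libraries, all 6 h and 24 h libraries lay below them, and the 2 h libraries spread across the 0 h range. The rise at 1 h was 0.28 ± 0.091 (edgeR adjusted p = 0.0466). It missed the threshold in 18 of 20 fits that left out 1 library (adjusted p up to 0.173), with RLE scaling (0.0691) and with a CPM filter (0.0584), and in the authors' deposited table its FDR was 0.0602. Fosl2 fell by 0.34 ± 0.091 at 6 h (edgeR adjusted p = 0.00413) and by 0.72 ± 0.092 at 24 h (adjusted p = 1.18e-06), and again at 24 h against 6 h (-0.38 ± 0.092, adjusted p = 0.00185). The step at 6 h against 2 h was -0.31 ± 0.091 (edgeR adjusted p = 0.0122), but -0.16 (adjusted p = 0.204) without 2 h replicates 1 and 2 and adjusted p = 0.0559 without 2 h replicate 2 alone. The step at 2 h against 1 h was -0.31 ± 0.091 (edgeR adjusted p = 0.0215), but -0.26 (adjusted p = 0.0878) without 1 h replicate 1. Without 2 h replicates 1 and 2 that step was -0.44 (edgeR adjusted p = 0.00192). At 2 h against 0 h Fosl2 was at -0.03 ± 0.091 (edgeR adjusted p = 0.845), and at -0.17 (adjusted p = 0.163) without 2 h replicates 1 and 2. Values without those replicates keep 2 h replicate 4, the 2 h library lowest in Fosl2 (214 CPM). Without replicate 4 alone, Fosl2 was at 0.091 at 2 h against 0 h (edgeR adjusted p = 0.230).

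Fos, the prototype of the family, was low throughout. It had 2.64, 3.25, 3.88 and 2.46 CPM at 0 h, 4.40, 3.97, 4.31 and 5.44 CPM at 1 h, 4.69, 7.70, 3.51 and 3.96 CPM at 2 h, 3.94, 4.07, 8.12 and 5.72 CPM at 6 h, and 4.46, 5.61, 4.46 and 4.196 CPM at 24 h. These rest on 52 to 153 reads per library. At 1, 6 and 24 h all 4 libraries lay above all 4 at 0 h, while the 2 h and 0 h libraries overlapped. Against 0 h Fos was at 0.57 ± 0.24 at 1 h (edgeR adjusted p = 0.145), rose by 0.71 ± 0.24 at 2 h (adjusted p = 0.020) and by 0.84 ± 0.24 at 6 h (adjusted p = 0.00548), and was at 0.62 ± 0.24 at 24 h (adjusted p = 0.0594). The 2 h value was 0.29 (edgeR adjusted p = 0.426) without 2 h replicates 1 and 2, the libraries with the most macrophage transcripts. The 2 h difference also missed the threshold when 2 h replicate 2 alone (adjusted p = 0.160), 0 h replicate 1 (0.0625) or 0 h replicate 4 (0.0695) was left out, and the 6 h difference when 6 h replicate 3 was left out (0.59, adjusted p = 0.0536). The 24 h difference, in turn, passed the threshold in 5 of 20 fits that left out 1 library. It also passed without a count filter (edgeR adjusted p = 0.0284), with only the 8 libraries compared (0.0136) and without 2 h replicates 1 and 2 (0.0266). None of the neighbouring times in the order of its means (6 h, 2 h, 24 h, 1 h, 0 h) differed past the threshold.

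Fosb, which encodes a FOS protein close to Fos itself, had the lowest level of the family per kilobase of exon, with 20 to 59 reads per library. Its libraries held 2.73, 1.98, 2.24 and 2.70 CPM at 0 h, 2.08, 2.30, 2.43 and 3.16 CPM at 1 h, 1.87, 2.57, 2.82 and 2.29 CPM at 2 h, 1.18, 1.57, 1.29 and 1.47 CPM at 6 h, and 1.46, 1.57, 1.14 and 2.65 CPM at 24 h. The 1 h and 2 h libraries overlapped those of 0 h, and all 6 h libraries lay below them. The difference from 0 h was 0.04 at 1 h (95% interval -0.42 to 0.50, edgeR adjusted p = 0.950) and -0.02 at 2 h (-0.48 to 0.44, adjusted p = 0.954). Fosb fell by 0.81 ± 0.25 at 6 h (edgeR adjusted p = 0.00946), and was at -0.51 ± 0.24 at 24 h (adjusted p = 0.134), where the value without 24 h replicate 4 was -0.79 (adjusted p = 0.0215).

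Jun, the founding gene of the JUN family, rose at every time. It had 76.5, 72.5, 64.7 and 76.3 CPM at 0 h, 123, 108.1, 115 and 119 CPM at 1 h, 151, 161, 149 and 154 CPM at 2 h, 123, 113, 131 and 102 CPM at 6 h, and 88.6, 95.7, 91.2 and 85.0 CPM at 24 h. No library of a treated time reached down to the 0 h range, and the 4 libraries of 2 h lay closest together relative to their level. The rise over 0 h was 0.68 ± 0.071 at 1 h (edgeR adjusted p = 5.81e-08), 1.08 ± 0.071 at 2 h (adjusted p = 2.47e-12), 0.69 ± 0.071 at 6 h (adjusted p = 9.75e-09) and 0.31 ± 0.071 at 24 h (adjusted p = 0.00141). It was still 1.06 (edgeR adjusted p = 3.92e-11) at 2 h without replicates 1 and 2. The levels ranked 2 h, 6 h, 1 h, 24 h and 0 h, and of these neighbours only 6 h and 1 h did not differ past the threshold (0.01, 95% interval -0.13 to 0.15, edgeR adjusted p = 0.928).

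Junb, which encodes a JUN protein that can oppose Jun on some promoters, had its highest mean at 1 h. It had 24.5, 20.4, 20.9 and 22.0 CPM at 0 h, 60.9, 55.7, 54.4 and 57.4 CPM at 1 h, 35.4, 65.2, 44.2 and 42.2 CPM at 2 h, 26.4, 23.0, 28.02 and 18.3 CPM at 6 h, and 20.1, 25.0, 20.5 and 16.01 CPM at 24 h. All 1 h and 2 h libraries lay above those of 0 h, and 2 h replicate 2 stood above the other 2 h libraries. Junb was 2.60-fold higher at 1 h than at 0 h (1.38 ± 0.16, edgeR adjusted p = 5.35e-06) and 2.13-fold higher at 2 h (1.09 ± 0.16, adjusted p = 2.60e-05). At 6 h it was at 0.13 (95% interval -0.20 to 0.45, edgeR adjusted p = 0.587) and at 24 h at -0.10 (-0.43 to 0.23, adjusted p = 0.710). Without 2 h replicates 1 and 2 the 2 h rise was 0.97 (edgeR adjusted p = 2.95e-06). The step at 2 h against 1 h was -0.29 ± 0.15 (adjusted p = 0.222) with all libraries, and past the threshold without 2 h replicate 2 (-0.49, adjusted p = 0.00674) or without replicates 1 and 2 (-0.39, adjusted p = 0.0437).

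Jund, the JUN gene expressed in most resting cells, did not rise past the threshold at any time. Its libraries held 52.6, 33.4, 35.4 and 38.8 CPM at 0 h, 44.3, 31.1, 42.8 and 37.8 CPM at 1 h, 31.0, 34.8, 43.4 and 44.3 CPM at 2 h, 30.6, 29.3, 30.1 and 20.2 CPM at 6 h, and 30.3, 37.3, 33.8 and 29.0 CPM at 24 h. The groups overlapped at all times but 6 h, where every library lay below every 0 h library. The difference was -0.04 at 1 h (95% interval -0.35 to 0.28, edgeR adjusted p = 0.928) and -0.07 at 2 h (-0.38 to 0.25, adjusted p = 0.780). Jund fell by 0.54 ± 0.16 at 6 h (edgeR adjusted p = 0.0122), which missed the threshold when 0 h replicate 1 was left out (-0.38, adjusted p = 0.0551) and in a fit of the 8 libraries at 0 h and 6 h alone (0.0541). At 24 h it was at -0.30 ± 0.16 (edgeR adjusted p = 0.202).

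Atf3 is a stress-induced factor of the ATF family that pairs with JUN proteins. It had 12.6, 11.5, 13.5 and 13.9 CPM at 0 h, 26.6, 24.1, 20.7 and 21.8 CPM at 1 h, 26.5, 47.8, 15.2 and 22.9 CPM at 2 h, 13.0, 18.6, 12.5 and 15.9 CPM at 6 h, and 8.86, 11.8, 10.01 and 13.5 CPM at 24 h. All 1 h and 2 h libraries lay above those of 0 h, and at 2 h the 4 libraries ranked as their macrophage marker sums did. Atf3 rose by 0.85 ± 0.25 at 1 h (edgeR adjusted p = 0.0393), a call lost in 15 of 20 fits that left out 1 library (adjusted p up to 0.113). It rose by 1.13 ± 0.25 at 2 h (edgeR adjusted p = 0.00195), and without 2 h replicates 1 and 2 by 0.57 ± 0.17 (adjusted p = 0.0111). The fall at 6 h against 2 h was -0.91 ± 0.25 (edgeR adjusted p = 0.0118) with all libraries, and -0.34 (adjusted p = 0.141) without those replicates. At 24 h Atf3 was at -0.22 against 0 h (95% interval -0.74 to 0.30, edgeR adjusted p = 0.606), and it was lower at 24 h than at 1 h (-1.07 ± 0.26, adjusted p = 0.00408).

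Maff encodes a small MAF protein, which has the DNA-binding and zipper regions but no activation domain and pairs with factors such as Nfe2l2 and Bach1. It had 52.1, 60.3, 51.2 and 53.6 CPM at 0 h, 79.2, 81.8, 79.5 and 84.1 CPM at 1 h, 69.9, 81.5, 72.7 and 86.5 CPM at 2 h, 41.7, 38.6, 41.6 and 39.0 CPM at 6 h, and 14.7, 21.5, 17.95 and 14.9 CPM at 24 h. All 1 h and 2 h libraries lay above the 0 h range and all 6 h and 24 h libraries below it. Maff rose by 0.58 ± 0.086 at 1 h (edgeR adjusted p = 2.12e-05) and 0.52 ± 0.086 at 2 h (adjusted p = 3.00e-05), fell by 0.43 ± 0.088 at 6 h (adjusted p = 2.46e-04), and was 3.13-fold lower at 24 h than at 0 h (-1.65 ± 0.094, adjusted p = 3.13e-13). The 2 h rise was 0.55 (edgeR adjusted p = 7.62e-05) without 2 h replicates 1 and 2. In the order 1 h, 2 h, 0 h, 6 h and 24 h, only 1 h and 2 h did not differ past the threshold (-0.06 at 2 h against 1 h, 95% interval -0.23 to 0.10).

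**Figure D2:**
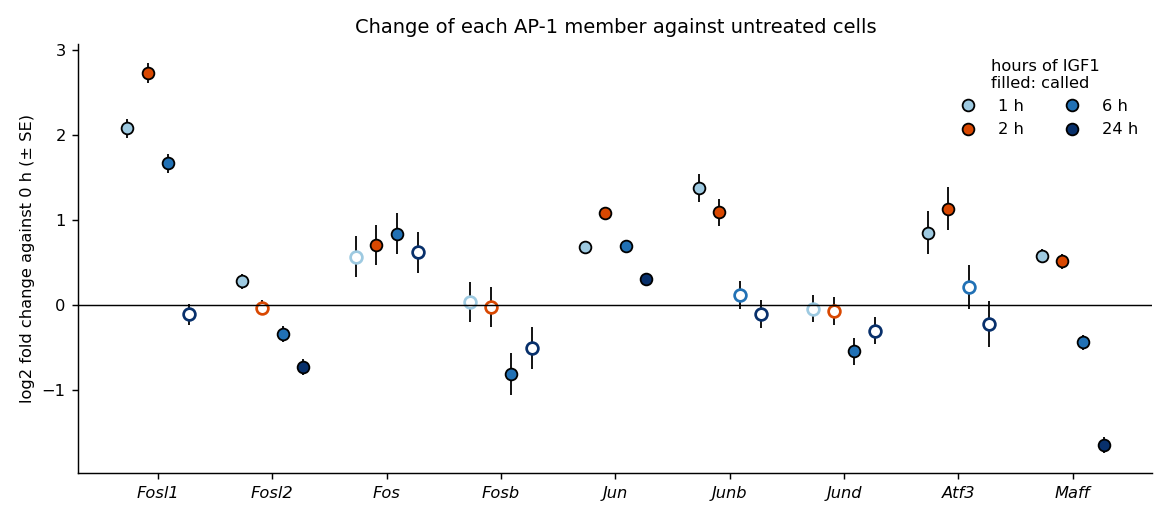
Log2 fold change of each member against 0 h (y axis) at 1, 2, 6 and 24 h of IGF1, with bars for the SE. Filled points passed an adjusted p under 0.05 in edgeR's quasi-likelihood test and open points did not. Fosl1 reaches 2.73 at 2 h, Jun is filled at all 4 times, and Maff runs down to -1.65 at 24 h.

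The plot of fold changes shows that members which shared the early rise parted afterwards. Fosl1, Jun, Junb, Atf3 and Maff were higher than at 0 h at both 1 h and 2 h. At 24 h, of these, Jun was above 0 h, Maff was below it, and Fosl1, Junb and Atf3 did not differ from it past the threshold. Between the treated times, 2 members were higher and 1 lower at 2 h than at 1 h (7.50% and 8.84% of all tested genes). At 6 h against 2 h, 0 were higher and 8 lower (13.6% and 13.7%), Fos being the exception. At 24 h against 6 h, 0 were higher and 4 lower (17.6% and 18.2%), namely Fosl1, Fosl2, Jun and Maff. Against 1 h, 0 were higher and 6 lower at 6 h (16.1% and 17.3%), and 0 were higher and 6 lower at 24 h (15.9% and 18.6%). At 24 h against 2 h, 0 were higher and 6 lower (20.8% and 22.9%). Without 2 h replicates 1 and 2, 6 members were lower at 6 h than at 2 h, and the share of all tested genes called lower in that fit is not given here. At 2 h, replicate 2 had the highest level of the 4 libraries in 6 of the 9 members.

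**Figure D3:**
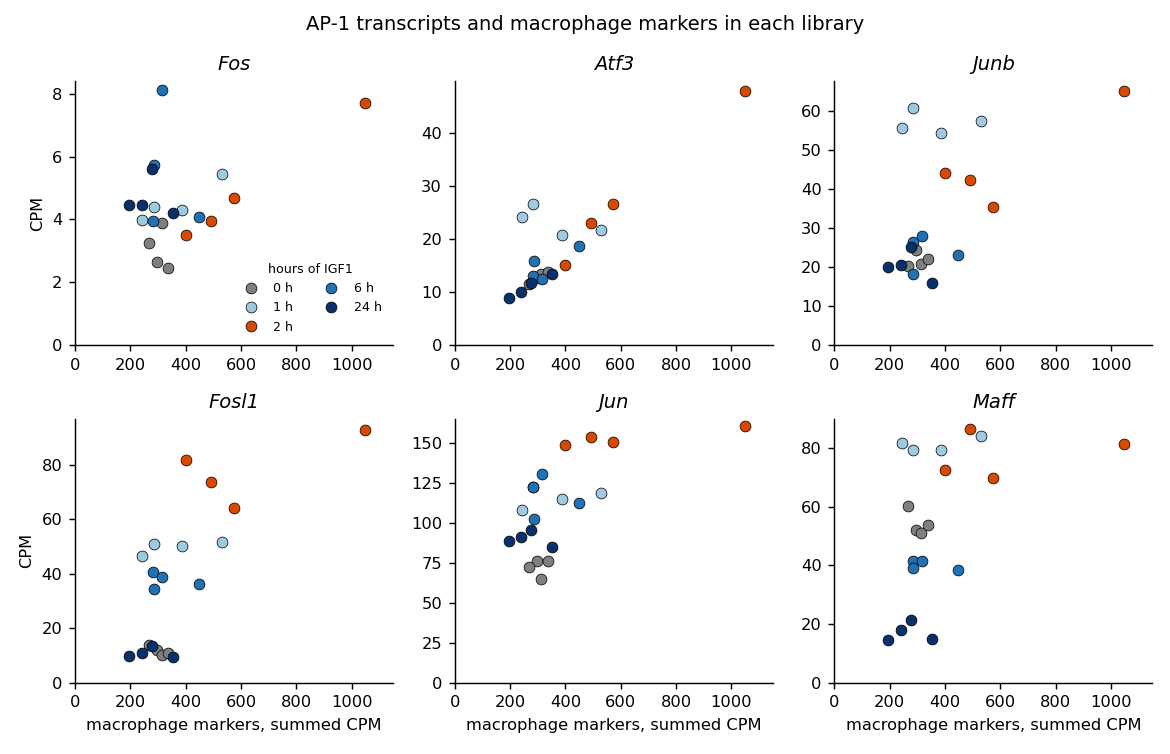
Level of 6 AP-1 members in CPM (y axes, from 0) against the summed CPM of 13 macrophage markers (x axes) in each of the 20 libraries, coloured by hours of IGF1. Atf3 is highest in 2 h replicate 2, the library with the most macrophage transcripts (1048 CPM), while for Junb the 1 h libraries reach 54.4 to 60.9 CPM at marker sums of 243 to 530 CPM.

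The plot of members against macrophage markers sets these levels beside each other. Fosl1 had 81.9 CPM in 2 h replicate 3, the 2 h library with the lowest marker sum (400.2 CPM), and 64.2 CPM in 2 h replicate 1 (573 CPM). Its rise at 2 h was as large without replicates 1 and 2 (2.72, edgeR adjusted p = 8.77e-17). For Atf3 and Fos the values without these replicates were smaller, as given above, and the part of the macrophage transcripts in them was not tested.

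The make-up of each family was described on a scale per length, as CPM per kilobase of exon, on which genes can be set side by side. No test was made of these shares. Of the summed FOS family level, Fosl2 held a mean ± SD of 80.3 ± 1.34% at 0 h, 58.0 ± 1.86% after 1 h, 42.2 ± 4.33% after 2 h, 53.5 ± 1.58% after 6 h and 70.8 ± 2.56% after 24 h. Fosl1 held 15.2 ± 1.34%, 38.4 ± 1.45%, 54.4 ± 4.37%, 40.9 ± 1.68% and 20.5 ± 2.16% at the same times. At 2 h, then, Fosl1 had the larger mean level per length of these 2 genes, 38.5 ± 5.97 CPM per kilobase against 29.96 ± 5.72 for Fosl2, and at the other times Fosl2 did. Fos held 2.94% to 7.60% of the family by time and Fosb 0.492% to 1.06%. The shared bases of Fosl1 and Ccdc85b bear on the Fosl1 share, and without division by length Fosl1 held 21.0% and Fosl2 77.0% at 2 h. In 2 h replicates 3 and 4, the libraries with fewer macrophage transcripts, Fosl1 held 54.1% and 60.1% per length and Fosl2 43.3% and 36.5%.

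**Figure D4:**
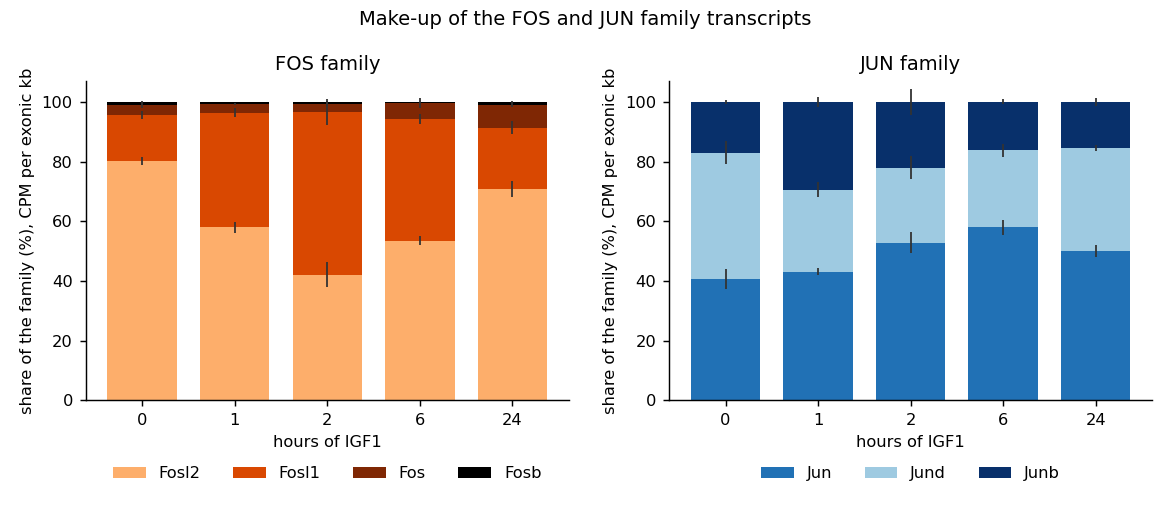
Mean share of each gene in the summed CPM per exonic kilobase of the FOS family (left) and the JUN family (right), in percent (y axes), against hours of IGF1 (x axes). Vertical lines are the SD over 4 libraries of the segment whose top they cross. Fosl1 goes up to 54.4% of the FOS family at 2 h, and Junb up to 29.4% of the JUN family at 1 h.

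Among the JUN genes, Jun held 40.7 ± 3.33%, Jund 42.3 ± 3.77% and Junb 17.0 ± 0.767% at 0 h, and the shares of Jun and Jund overlapped between libraries. Without division by length they did not overlap: Jun held 54.1% (49.8% to 57.4%) and Jund 29.6% (26.5% to 34.2%) at 0 h. The exonic bases that Jund shares with Gm11175 bear on its share. At 1 h the shares were 43.1 ± 1.09% for Jun, 27.5 ± 2.56% for Jund and 29.4 ± 1.60% for Junb. At 2 h Jun held 52.9 ± 3.61%, Jund 25.1 ± 3.83% and Junb 22.0 ± 4.39%, where 2 h replicates 3 and 4 had 50.9% and 51.8% for Jun, 28.3% and 28.5% for Jund, and 20.9% and 19.7% for Junb. At 6 h Jun held 57.9 ± 2.48%, Jund 25.8 ± 2.04% and Junb 16.3 ± 0.834%, and at 24 h they held 50.01 ± 2.05%, 34.4 ± 0.988% and 15.6 ± 1.47%. The summed level of the FOS family was 38.0 ± 2.44 CPM per kilobase at 0 h, 64.0 ± 2.61 after 1 h, 70.9 ± 11.04 after 2 h, 45.1 ± 2.00 after 6 h and 26.1 ± 1.85 after 24 h. That of the JUN family was 56.3 ± 7.12, 84.7 ± 6.07, 91.5 ± 7.62, 63.6 ± 8.42 and 56.7 ± 5.21 CPM per kilobase. Both sums had their highest mean at 2 h, where the libraries overlapped those of 1 h. At 24 h the FOS sums of 24.2 to 28.3 lay below all 0 h sums of 34.6 to 40.5, while the JUN sums of 51.0 to 63.3 overlapped the 0 h sums of 50.6 to 66.2. In the plot of family shares Fosl1 and Fosl2 at 24 h lie nearer to 0 h than at 1, 2 or 6 h, with Fosl1 at 20.5% at 24 h and 15.2% at 0 h. The share of Fos, in contrast, was farthest from 0 h at 24 h, at 7.60 ± 0.662% at 24 h and 3.45 ± 0.917% at 0 h.

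Genes around the family were followed in 4 textbook lists. The lists were chosen with earlier results of these data known, so their counts are a description and no independent test. Of 20 tested genes known as AP-1 targets, 10 were higher and 0 lower at 1 h, 17 and 0 at 2 h, 10 and 1 at 6 h, and 2 and 5 at 24 h. The shares of all tested genes called higher and lower, which also stand beside the next 3 lists, were 6.75% and 3.88% at 1 h, 20.2% and 17.5% at 2 h, 20.6% and 19.6% at 6 h, and 12.7% and 13.2% at 24 h. Fits that left out 1 library called 5 to 10 of these targets at 24 h. Their median log2 fold change was 0.49, 0.91, 0.36 and -0.18, beside -0.01 to 0.00 for all tested genes. Hbegf, a membrane-anchored ligand of the EGF receptor, averaged 155 ± 8.79 CPM at 1 h and 38.9 ± 5.67 CPM at 0 h (1.99 ± 0.087, edgeR adjusted p = 1.88e-15), and was at 2.13 ± 0.088 at 2 h and 1.09 ± 0.087 at 6 h. The chemokine gene Ccl2 rose by 1.45 ± 0.099 at 1 h, 2.11 ± 0.10 at 2 h and 0.93 ± 0.099 at 6 h and fell by 0.63 ± 0.10 at 24 h. The cytokine gene Lif rose by 1.38 ± 0.12 and the prostaglandin synthase gene Ptgs2 by 1.16 ± 0.19 at 1 h. The urokinase receptor gene Plaur fell by 0.81 ± 0.10 and Lif by 0.68 ± 0.14 at 24 h. The adhesion receptor gene Cd44 rose by 1.00 ± 0.11 at 6 h. In the fit without 2 h replicates 1 and 2, 21 targets were tested, of which 13 were higher at 2 h and 0 lower. The shares of all tested genes called in that fit, which also bear on the next 3 lists, are not given here. The proteases and cytokines whose 2 h libraries spread widely include Mmp10, a stromelysin gene, at 16.2 ± 19.1 CPM at 2 h and 2.93 ± 1.21 CPM at 0 h (2.48 ± 0.70, edgeR adjusted p = 0.0106), and Il11, which rose by 1.91 ± 0.40. With 2 h replicates 1 and 2 left out, Mmp10 was at 0.24 (edgeR adjusted p = 0.735) and Il11 rose by 1.06 (adjusted p = 0.00115).

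Of 8 factors that act on AU-rich elements, which mark short-lived messenger RNAs such as those of Fos and Jun for decay, 5 were higher and 0 lower at 1 h, 4 and 1 at 2 h, 4 and 1 at 6 h, and 1 and 0 at 24 h. The counts at 2 h were again 4 and 1 without 2 h replicates 1 and 2, and without 0 h replicate 1 those at 24 h were 1 and 1. Zfp36l2, a zinc finger protein that recruits the deadenylation machinery, averaged 498 ± 28.9 CPM at 1 h and 130.1 ± 5.62 CPM at 0 h (1.94 ± 0.080, edgeR adjusted p = 5.64e-16). It was at 1.61 ± 0.080 at 2 h, 0.66 ± 0.078 at 6 h and 0.41 ± 0.079 at 24 h. Its relatives Zfp36 and Zfp36l1 rose by 0.67 ± 0.087 and 0.59 ± 0.11 at 1 h, as did Hnrnpd (0.36 ± 0.075) and Elavl1 (0.31 ± 0.062), which can stabilise such transcripts. Zfp36l1 also rose at 2 h (0.42 ± 0.11) and fell at 6 h (-0.31 ± 0.11), and Cnot8, a deadenylase subunit, fell at 2 h (-0.23 ± 0.069). The median of the list was 0.34, 0.21, 0.22 and 0.02 at the 4 times.

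Of 22 upstream kinases and serum response or ternary complex factors, 1 was higher and 0 lower at 1 h, 2 and 3 at 2 h, 6 and 3 at 6 h, and 1 and 7 at 24 h. Without 2 h replicate 4 the counts at 1 h were 2 higher and 3 lower. At 2 h they were 0 and 3 when 0 h replicate 2 or 3, 1 h replicate 1 or 3, or 6 h replicate 1, 2 or 3 was left out, and at 24 h 0 and 5 when 0 h replicate 4 or 24 h replicate 1 or 3 was. The gene called at 1 h was Srf, serum response factor itself, at 104 ± 4.90 CPM at 1 h and 75.9 ± 3.67 CPM at 0 h (0.46 ± 0.080, edgeR adjusted p = 2.08e-04). Srf fell by 0.66 ± 0.082 at 24 h (edgeR adjusted p = 5.17e-07). The ERK kinase gene Mapk3 fell by 0.52 ± 0.055 at 6 h. Map2k1, which encodes a kinase that activates ERK, fell by 0.43 ± 0.054 at 24 h. At 2 h Braf (-0.31 ± 0.075), Elk1 (-0.29 ± 0.079) and Gsk3b (-0.28 ± 0.089) fell, and Map2k4 (0.15 ± 0.059) and Map2k1 (0.14 ± 0.053) rose. In the fit that left out 2 h replicates 1 and 2, Elk1 (-0.23, edgeR adjusted p = 0.0684), Map2k4 (0.13, adjusted p = 0.147) and Map2k1 (0.14, adjusted p = 0.0799) missed the threshold. The median of the list lay between -0.05 and 0.06 at the 4 times.

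Of 18 partners and relatives of AP-1 with the same basic leucine zipper, 15 were tested, and 0 were higher and 2 lower at 1 h, 3 and 5 at 2 h, 0 and 5 at 6 h, and 2 and 2 at 24 h. The counts at 2 h were 2 and 7 without 2 h replicates 1 and 2. At 1 h they were 2 and 3 without 2 h replicate 2 and 1 and 5 without 2 h replicate 4, and 3 and 4 at 24 h without that replicate 4. Ddit3, an inhibitor of C/EBP factors, fell by 0.44 ± 0.093 and Maf, a large MAF protein, by 0.31 ± 0.071 at 1 h. Mafk, a small MAF relative of Maff, fell by 0.73 ± 0.096 at 2 h, 0.57 ± 0.095 at 6 h and 0.57 ± 0.096 at 24 h, and Mafg, the remaining small MAF gene, fell by 0.52 ± 0.070 at 2 h. Maff was above its 0 h level at 2 h, where both of these were below theirs. Bach2, a repressor that pairs with small MAF proteins, averaged 2.03 CPM at 6 h and 6.33 CPM at 0 h (-1.63 ± 0.23, edgeR adjusted p = 1.61e-06). At 24 h Ddit3 (0.40 ± 0.092) and Jdp2 (0.32 ± 0.092), a repressor that pairs with JUN proteins, rose.

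**Figure D5:**
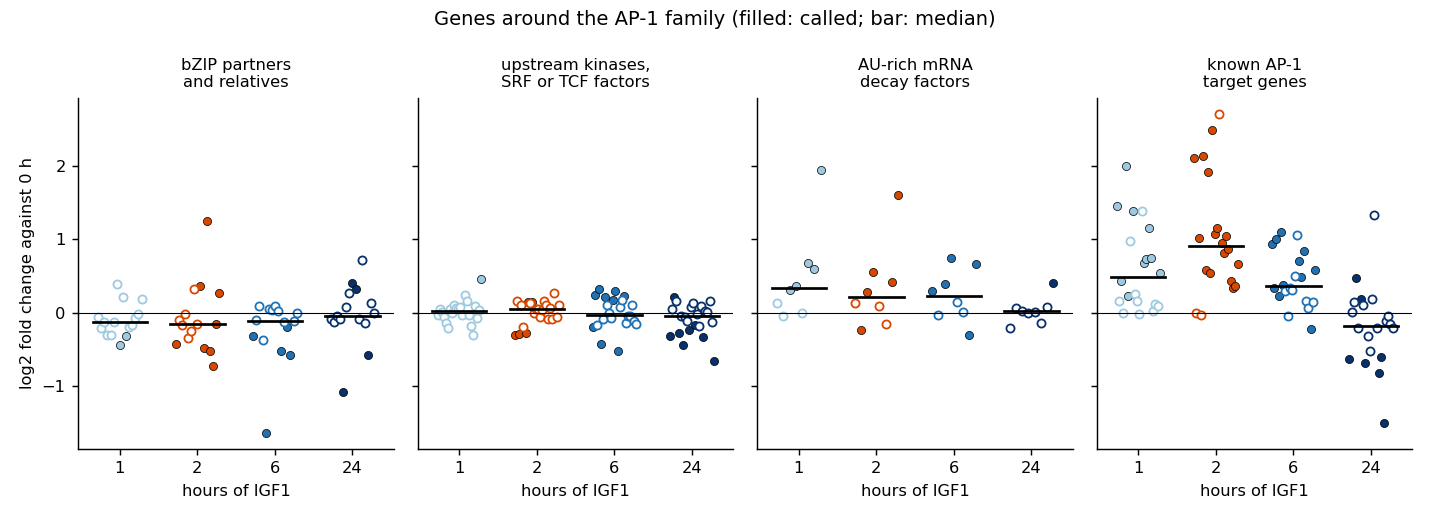
Log2 fold change against 0 h (y axis) of every tested gene of 4 lists at 1, 2, 6 and 24 h of IGF1 (x axes). Filled points passed an adjusted p under 0.05 in edgeR's quasi-likelihood test, open points did not, and the bar is the median of the list. The median of the AP-1 targets is 0.91 at 2 h, and 10 of their 20 points are filled and above 0 at 1 h.

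The genes whose levels over the 20 libraries were most like those of a member were found by Pearson's r of log2 CPM among 10342 genes with a mean of at least 5 CPM. The values describe libraries that share times and macrophage content, and carry no test. For Fosl1 they were Hbegf (0.97), Tsku (0.97) and Mat2a (0.97), and for Fosl2 they were Smurf1 (0.96), Vcl (0.96) and Frmd4a (0.95). Jun was most like Baiap2 (0.95), Prkrip1 (0.93) and Fhl3 (0.92), and Junb like Ier5l (0.96), Zc3h12a (0.94) and Stk40 (0.93). Vcl, which encodes the adhesion protein vinculin, averaged 461 CPM at 0 h, 578 CPM at 1 h, 451 CPM at 2 h, 304 CPM at 6 h and 236 CPM at 24 h. Ier5l averaged 12.8 CPM at 0 h, 48.1 CPM at 1 h, 42.3 CPM at 2 h, 16.4 CPM at 6 h and 10.9 CPM at 24 h. Maff was most like Klhdc8a (0.97), Dio3 (0.96) and Asb5 (0.96), of which Dio3, the deiodinase that inactivates thyroid hormone, averaged 14.8 CPM at 24 h and 85.8 CPM at 0 h. Atf3 was most like Clec4d (0.90), a lectin receptor gene of myeloid cells that averaged 11.7 CPM at 2 h and 3.40 CPM at 0 h, followed by Pvr (0.90) and H19 (0.89). Fos, Fosb and Jund had weaker matches, led by Hdhd2 (0.80), Dtx3 (0.81) and Ppp2r3d (0.88), and Egr1 (0.75), another immediate early gene, was among the 3 closest to Fos. Between members, Fosl1 and Jun were the closest pair (0.92), followed by Fosl2 and Maff (0.88), while Fos and Jund were farthest apart (-0.42).

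The authors' deposited table of edgeR results held 63 of the member comparisons. In it 62 had the same call as here and 1, Fosl2 at 1 h against 0 h, did not, and no log2 fold change differed by more than 0.0142.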

How the data were processed

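RNA-seq counts of 20 mouse tenocyte libraries were used, 4 at each of 5 times, with groups and replicate numbers taken from the titles. The authors deposited raw read counts per gene for 29986 genes, with whole numbers and column totals that differ between libraries. They also deposited a table of log2 fold changes, average log2 CPM, p-values and adjusted p-values for 12207 genes, per the file headers, used here for a closing check of the member calls. Named in the submitters' processing notes are STAR, FastQC, mm10 and edgeR. Which tool counted reads, with which strand setting and annotation release, is not given in the sources used here.

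Deposited counts went into edgeR 4.0.16 (R 4.3.3): filterByExpr by group (14420 genes, 99.9% of counts), TMM scaling and a robust quasi-likelihood fit of all 20 libraries without covariates, with 10 two-sided contrasts between times. Benjamini-Hochberg adjustment ran over all tested genes with a threshold of 0.05. The SE is the log2 fold change divided by the square root of F, and 95% intervals are 1.96 SE. This normal quantile makes the intervals approximate, and they can be narrower than the test implies. For Fosb at 24 h against 2 h the interval was -0.97 to -0.002, while the unadjusted p of edgeR's quasi-likelihood test was 0.0593. CPM are scaled by TMM library size. Log2 CPM for correlations used a prior count of 2. Lengths and positions are the union of exons in GENCODE M21. The fit was tested on simulated data. Interval widths rest on the spread between libraries, and depth (13734425 to 22687173 counts) bears most on Fos and Fosb. Mitochondrial genes held 1.31% to 1.75% of counts.

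One label clash exists: the description given with 0 h replicate 2 names 0 h replicate 1. The chi-square between both libraries, divided by its degrees of freedom, was 8.60, and all replicate pairs ran from 2.88 to 52.5, so they differed by more than sampling noise and count as separate libraries. The highest values, 38.8, 52.5 and 41.5, were those of 2 h replicate 4 with 2 h replicates 1, 2 and 3. The labels name no batch.

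The members, the 4 lists (70 genes, 65 tested) and the marker lists were chosen with earlier results of these data known. Named genes are the 9 members, Ccdc85b, up to 4 called genes per list and time with the largest change and a mean of at least 5 CPM in the higher group, the 3 genes most like each member (gene models without a name left out), and all genes of a count of 5 or fewer. Some of these are not reported here. Member tests and list counts were recomputed with no count filter, with RLE scaling, with a minimum of 1 CPM in at least 4 libraries, with DESeq2 1.42.0, with the replicate number as a block, with only the 8 libraries compared, with 2 h replicates 1 and 2 left out, and with each library left out in turn. Shares were also computed without length and correlations with a prior count of 0.5.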

Additional observations from a re-analysis of the deposited data

Results flagged for a closer look

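In 8 of 75 groups of 4 libraries, 1 library stood apart from the other 3 by more than the 95% critical value of Dixon's test for 4 values. Chance alone flags a few groups in a family of this size. Highest and lowest refer here to the 4 libraries of the same time. Among the AP-1 genes, Fosl2 was lowest in 0 h replicate 3 (268 CPM) and Jund was lowest in 6 h replicate 4 (20.2 CPM), and without that library the 6 h fall of Jund kept its call. Ccdc85b was highest in 1 h replicate 1 (17.5 CPM). The other 5 were sums of marker genes. Schwann cell markers were highest in 1 h replicate 4 (11.6 CPM), 2 h replicate 2 (79.4 CPM) and 6 h replicate 2 (19.2 CPM). Endothelial markers were highest among the 2 h libraries in 2 h replicate 2 (47.6 CPM) and lowest among the 0 h libraries in 0 h replicate 1 (40.04 CPM). The part of these markers in the AP-1 levels was not tested. Of 6 Schwann cell markers tested 2 were higher at 2 h than at 0 h, beside 20.2% of all tested genes. Of 3 endothelial markers tested 1 was lower at 2, 6 and 24 h, beside 17.5%, 19.6% and 13.2% of all tested genes. Counts this small cannot be told apart from these shares.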

How the results depend on the processing

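The 90 member results were recomputed under 27 alternatives, which gave 2430 values: 2310 kept direction and call, 61 lost a call, 27 gained one and 32 changed sign, none of the last with either value called. DESeq2 changed no member call. Calls of Fosl1, Jun and Maff against 0 h held in every alternative, and those of Junb at 1 and 2 h. No pairing by replicate number was seen in the deviations: over 40 pairs with the same number they correlated by -0.17 to 0.13, and 2 of 20 libraries correlated best with their own number. Whether libraries of the same number share an animal or culture cannot be told from these correlations. With the replicate block, the counts of members called were 6 for 1 h, 6 for 2 h, 7 for 6 h and 3 for 24 h, as without it, and 3 upstream factors at 2 h in place of 5. Without a count filter 5 members were called at 24 h in place of 3, 4 bZIP relatives at 1 h, and 3, 3 and 5 upstream factors at 1, 2 and 24 h. With only the 8 libraries compared, 7 and 8 bZIP relatives were called at 1 and 24 h, 3 and 2 upstream factors at 1 and 2 h, 2 AU-rich factors at 24 h and 13 AP-1 targets at 24 h. Without 2 h replicates 1 and 2, 5 bZIP relatives were called at 1 h, and the sign changed for Fosb (0.076) and Jund (0.12) at 2 h, for Fos (-0.27), Fosb (0.047), Jund (0.18) and Atf3 (-0.27) at 2 h against 1 h, and for Fos at 24 h against 2 h (0.33). The shares of all tested genes called in these alternative fits are not given here, and the cause of the differences was not tested.

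With each library left out in turn, 4 to 6 members were called at 1 h, 5 to 6 members at 2 h, 6 to 7 members at 6 h, 3 to 4 members at 24 h, 2 to 4 at 2 h against 1 h, 6 to 8 at 6 h against 2 h, 4 to 5 at 24 h against 6 h, 5 to 7 at 6 h against 1 h, and 6 to 7 at 24 h against 1 h or 2 h. At 1, 2, 6 and 24 h the calls were 2 to 6, 7 to 11, 4 to 7 and 4 to 7 for bZIP relatives, 1 to 5, 3 to 7, 6 to 10 and 5 to 9 for upstream factors, 5 to 5, 4 to 6, 4 to 6 and 1 to 2 for AU-rich factors, and 9 to 11, 15 to 17, 10 to 12 and 5 to 10 for AP-1 targets. Over the same fits, 1158 to 2156 of all tested genes were called at 1 h, 4828 to 5698 at 2 h, 5117 to 6634 at 6 h and 3118 to 4670 at 24 h. With all libraries they were 1533, 5443, 5797 and 3746. Log2 fold changes that crossed 0 ran from -0.13 to 0.11 for Jund and -0.087 to 0.11 for Fosb at 1 h, and from -0.11 to 0.081 for Fosb, -0.15 to 0.095 for Jund and -0.12 to 0.091 for Fosl2 at 2 h. At 2 h against 1 h they were -0.15 to 0.29 for Fos, -0.14 to 0.065 for Fosb, -0.11 to 0.076 for Jund and -0.10 to 0.50 for Atf3. For Fos they were -0.12 to 0.43 at 6 h against 2 h, -0.35 to 0.036 at 24 h against 6 h, -0.034 to 0.15 at 24 h against 1 h and -0.22 to 0.20 at 24 h against 2 h, and for Jun -0.035 to 0.086 at 6 h against 1 h.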

Other observations

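Further genes of the lists were as follows. Of the AP-1 targets, the collagenase gene Mmp13 averaged 521 ± 336 CPM at 2 h and 249 ± 22.5 CPM at 0 h (1.07 ± 0.30, edgeR adjusted p = 0.0105), and the stromelysin gene Mmp3 139 ± 115 CPM at 2 h and 62.7 ± 6.27 CPM at 0 h (1.15 ± 0.37, adjusted p = 0.0214). Without 2 h replicates 1 and 2, which had the most macrophage transcripts, Mmp13 was at 0.27 (edgeR adjusted p = 0.201) and Mmp3 at 0.22 (adjusted p = 0.335). Neither was called at 1, 6 or 24 h. The urokinase gene Plau rose by 0.68 ± 0.092 at 1 h, 0.95 ± 0.092 at 2 h and 0.70 ± 0.092 at 6 h, and the heme oxygenase gene Hmox1 by 0.23 ± 0.061 after 1 h, 0.59 ± 0.061 after 2 h, 0.37 ± 0.061 after 6 h and 0.19 ± 0.061 after 24 h. The gap junction gene Gja1 rose by 0.23 ± 0.056 at 6 h and 0.47 ± 0.056 at 24 h, when Plaur, Lif and Ccl2 were lower than at 0 h. Vegfa, the endothelial growth factor gene, averaged 155 CPM at 2 h and 97.8 CPM at 0 h (0.67 ± 0.076, edgeR adjusted p = 9.07e-08) and also rose at 1 h and 6 h. Among the bZIP relatives, Nfe2l2, a partner of small MAF proteins, rose by 0.27 ± 0.064 at 2 h, and Atf2 fell by 0.43 ± 0.063 at 2 h and 0.31 ± 0.063 at 6 h. Most of these genes were chosen after their values were seen.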
